A study of Mus musculus with 2 samples.

Results

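The genes of the CD28 and CTLA-4 costimulation axis were described in cells sorted live from subcutaneous MC38 tumors. MC38 is a mouse colon cancer line. The axis was taken as 3 receptors (Cd28, Ctla4 and Icos) and 3 ligands (Cd80, Cd86 and Icosl), which were found by their symbols as 6 of the 32285 genes in the deposited matrices, each with 1 row. Hosts were female C57BL/6 mice of 6 to 8 weeks. One group was Lmo7+/+, and the other carried a genomic knockout of Lmo7 in every host cell, while the implanted tumor cells were the same in both groups and kept their own Lmo7. Each group gave 1 10x Genomics library, the 2 libraries were pooled for sequencing, and the number of mice behind each is not given in the sources used here. Genotype and library therefore cannot be told apart, no test between genotypes was possible, and every interval below is a 95% interval for counting error only. The comparison asks where the receptors and ligands were expressed among the cells of the tumor and how far their RNA levels differed between the libraries.

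T cells need a signal beside that of the antigen receptor. CD28 gives it when CD80 or CD86 on an antigen-presenting cell binds it, and CTLA-4 binds the same pair of ligands more tightly, restrains the T cell and is carried at high density by regulatory T cells. ICOS, a relative of CD28 that appears on activated T cells, has a ligand of its own, ICOSL. CD80 and CD86 are displayed by dendritic cells, macrophages, monocytes and B cells, and ICOSL also by cells outside the blood lineage.

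All 3 receptor genes lie in a row on the plus strand of chromosome 1 (GRCm38). Cd28 (ENSMUSG00000026012) is at chr1:60716800-60773359, Ctla4 (ENSMUSG00000026011) at chr1:60887000-60915832 and Icos (ENSMUSG00000026009) at chr1:60977927-61000320, with 113640 bp between Cd28 and Ctla4 and 62094 bp between Ctla4 and Icos. Of the ligand genes, Cd86 (ENSMUSG00000022901, chr16:36603869-36666081, minus strand) and Cd80 (ENSMUSG00000075122, chr16:38455561-38496335, plus strand) are 1789479 bp apart on chromosome 16, and Icosl (ENSMUSG00000000732, chr10:78069302-78083913, plus strand) is on chromosome 10. Ctla4 overlaps the pseudogene Rpl18-ps1 and Icos the gene model Gm37039, both on the same strand, so that reads in those stretches cannot be assigned with certainty. The 18 coding bases below, read from the annotated transcripts, encode the loop of each receptor that contacts its ligand. They are shown because ligand choice is what separates Cd28 and Ctla4 from Icos. Each stretch is in exon 2, and capitals mark the 3 proline codons:
Cd28, chr1:60763275-60763292, plus strand: atgtacCCTCCGCCTtac
Ctla4, chr1:60912713-60912730, plus strand: atgtacCCACCGCCAtac
Icos, chr1:60993983-60994000, plus strand: tttgacCCACCTCCTttt
Cd28 and Ctla4 had 16 of the 18 bases in common, and Icos had 11 in common with either.

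Levels are given as CPM, the summed UMI counts of a gene in a class scaled to 1000000 UMIs of that class in 1 library. A UMI is a tag on one captured RNA molecule. The filters left 13542 cells of the Lmo7+/+ library, with a median of 4535.5 UMIs, and 11860 cells of the library labelled Lmo7-/-, with a median of 4304.5. Classes were named from markers, and no member was a marker or a clustering gene. Clusters that could not be named held 42.6% and 37.5% of the cells. Each named T-like, NK-like, macrophage-like, monocyte-like and dendritic-like class showed 8 or more of its markers at a level of 5 CPM or above, and tumor cell-like cells had 5 of 16. The same markers had given the classes their names, so these counts are no independent check of the names. Lmo7 did not check the host label. Endothelial-like cells, which are host cells, carried it at 36.6 CPM (18 counts) in the Lmo7+/+ library and 29.0 CPM (12 counts) in the library labelled Lmo7-/-, against 0.477 and 0.569 CPM in macrophage-like cells and 21.6 and 19.7 CPM in tumor cell-like cells. Whether the deleted stretch holds the counted 3′ ends is not given in the sources used here. The libraries shared 279 barcodes, 1.72% and 1.84% of their droplets.

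Among the cells given a class, receptor and ligand counts fell into separate compartments. Lymphocyte classes, with 506 cells in the Lmo7+/+ library and 660 in the library labelled Lmo7-/-, held 75.9% and 79.5% of the Cd28 counts of the kept cells, 66.5% and 76.1% of the Ctla4 counts and 74.4% and 77.1% of the Icos counts. Macrophage-like, monocyte-like and tumor cell-like cells each held under 3% of them. Cells left without a class held 137 of the 468 and 153 of the 754 Ctla4 counts. They also held 330 of the 1463 and 580 of the 2886 Icos counts. These cells include a cluster of 212 cells with markers of 2 lineages, T cell and macrophage. Macrophage-like cells alone, 3627 and 4214 cells, held 58.3% and 65.0% of the Cd80 counts, 73.3% and 77.1% of the Cd86 counts and 68.8% and 74.0% of the Icosl counts. Dendritic-like cells, only 323 and 208 in number and including clusters with markers of another lineage, held 10.5% and 9.03% of the Cd80 counts.

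Cd28 was spread most evenly. In regulatory T-like cells, with Foxp3 at 727 CPM, it stood at 375 CPM (interval 288 to 480, 63 counts) in the Lmo7+/+ library and 508 CPM (412 to 620, 97 counts) in the library labelled Lmo7-/-. In memory-like T cells, with S1pr1 and Tcf7 among their leading genes, it stood at 372 CPM (278 to 488) and 486 CPM (370 to 626), and in CD8 T-like cells at 205 CPM (159 to 261) and 219 CPM (182 to 261). The first pair of classes lay above CD8 T-like cells in both libraries. Regulatory T-like cells exceeded them 1.83-fold and 2.32-fold, with a log2 ratio of 0.87 (0.35 to 1.39) and 1.21 (0.81 to 1.61), and memory-like T cells 1.81-fold and 2.21-fold. Cycling CD8 T-like cells had 169 and 182 CPM, 0.825 and 0.831 times the level of CD8 T-like cells, with intervals that covered no difference. No neighbours in the order of the 7 lymphocyte classes were apart, where apart means that the intervals did not overlap in either library.

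Ctla4 was highest in regulatory T-like cells, which held 32.1% of its counts in either library. It reached 893 CPM (756 to 1048, 150 counts) there in the Lmo7+/+ library and 1267 CPM (1113 to 1438, 242 counts) in the library labelled Lmo7-/-. CD8 T-like cells had 162 CPM (121 to 212) and 219 CPM (182 to 261), so that regulatory T-like cells exceeded them 5.53-fold and 5.78-fold. Memory-like T cells had 143 and 90.5 CPM on 20 and 11 counts. Regulatory T-like cells were apart from the next class in both libraries, and the classes below them were not apart from their neighbours. After every cell was thinned to 1500 UMIs, a UMI of Ctla4 was found in 54.8% (38.7 to 70.2, exact binomial interval) and 60.9% (45.4 to 74.9) of regulatory T-like cells, against 22.6% (15.1 to 31.8) and 31.3% (24.6 to 38.6) of CD8 T-like cells. Before thinning the shares were 62.7% and 71.8%, and 27.4% and 36.4%. The background, measured in macrophage-like cells, was 0.0580% and 0.207% after thinning. Thinning left out 25 and 32 regulatory T-like cells, 29 and 57 CD8 T-like cells and 181 and 355 macrophage-like cells. Median depth before it was 1788 and 1556.5 UMIs, 2069 and 2095 UMIs, and 5298 and 4493.5 UMIs in these classes.

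Icos stepped down across the T cell classes. Regulatory T-like cells were at 2071 CPM (1859 to 2301, 348 counts) in the Lmo7+/+ library and 3567 CPM (3304 to 3845, 681 counts) in the library labelled Lmo7-/-. A cluster led by Il17a and Tnfsf8, which was left unnamed because it mixed Cd4 with gamma delta T cell genes, followed with 1409 CPM (1166 to 1688) and 1925 CPM (1664 to 2216), and CD8 T-like cells with 972 CPM (868 to 1086) and 1363 CPM (1269 to 1463). These 3 classes were apart from each other in both libraries, and CD8 T-like cells were apart from memory-like T cells, at 694 CPM (563 to 847) and 864 CPM (707 to 1046). Cycling CD8 T-like cells, marked by Mki67 at 461 CPM, had 345 CPM (293 to 404) and 549 CPM (495 to 608). That was 0.355 and 0.403 times the level of CD8 T-like cells, a log2 ratio of -1.49 (-1.78 to -1.21) and -1.31 (-1.49 to -1.13). Ctla4 in the cycling cells was 0.717 and 0.777 times that level, with intervals that covered no difference. The cycling cells were deeper, with medians of 3829.5 and 4429 UMIs against 2069 and 2095, so a ratio of CPM is not a ratio per cell. Their Icos counts were 155 in 96 cells and 371 in 144 cells, against 313 in 135 and 771 in 236 CD8 T-like cells. After thinning, 88.1% (74.4 to 96.0) and 93.5% (82.1 to 98.6) of regulatory T-like cells carried an Icos UMI (92.5% and 93.6% before it), against 0.0580% and 0.181% of macrophage-like cells.

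**Figure D1:**
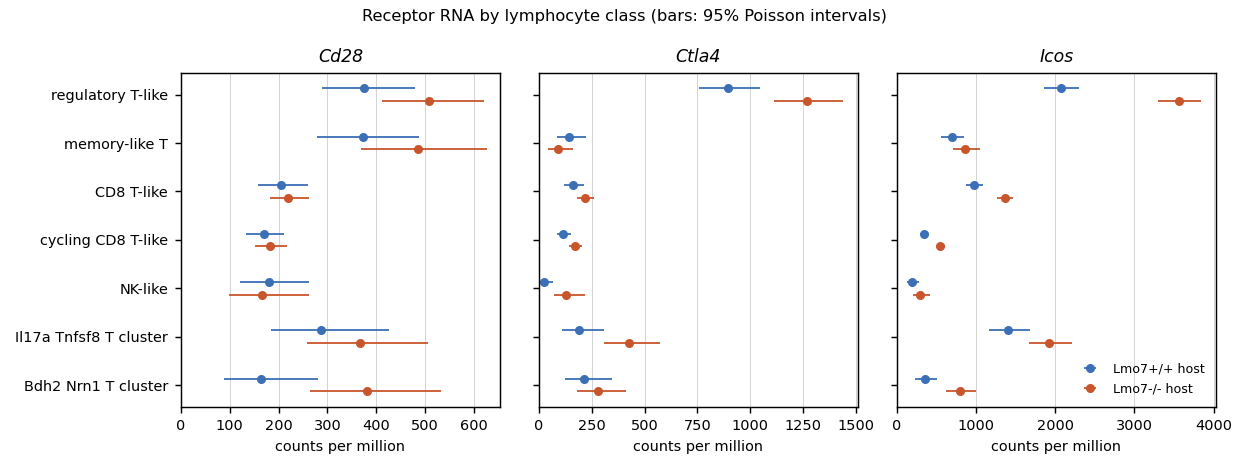
Levels of Cd28, Ctla4 and Icos in CPM (x axes, each from 0) in 7 lymphocyte classes (y axis), with blue points for the Lmo7+/+ library, orange points for the library labelled Lmo7-/-, and bars for 95% Poisson intervals. Regulatory T-like cells hold the highest points for Ctla4 (893 and 1267 CPM) and Icos (2071 and 3567 CPM), while Cd28 spans 164 to 508 CPM.

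The balance of CTLA-4 and CD28 transcripts differed between classes. Capture differs between genes, so these ratios of counts are compared only across classes. In regulatory T-like cells there were 2.38 Ctla4 counts per Cd28 count (interval 1.76 to 3.25) in the Lmo7+/+ library and 2.49 (1.96 to 3.19) in the library labelled Lmo7-/-. CD8 T-like cells had 0.788 (0.537 to 1.15) and 1.00 (0.773 to 1.29), and memory-like T cells 0.385 (0.217 to 0.655) and 0.186 (0.0883 to 0.358). The intervals of regulatory T-like, CD8 T-like and memory-like cells were separate in the library labelled Lmo7-/-, and those of the last pair overlapped in the Lmo7+/+ library. Ctla4 and Icos were seen together in 47.6% and 60.9% of the thinned regulatory T-like cells, and Cd28 and Ctla4 together in 31.0% and 30.4%. Icos was in 87.0% and 100% of those cells that had Ctla4, and in 89.5% and 83.3% of the rest. Ctla4 was in 68.4% and 58.3% of those that had Cd28, and in 43.5% and 63.6% of the rest. The direction differed between the libraries for both pairs, so the joint shares are not read as linked expression.

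NK-like cells, with Ncr1 at 236 CPM and Cd3e at 11.4 CPM, had the lowest Icos of the 7 lymphocyte classes, and for Cd28 they were the lowest in the library labelled Lmo7-/- and above cycling CD8 T-like cells and the Bdh2 Nrn1 cluster in the Lmo7+/+ library. Icos stood at 194 CPM (30 counts) and 295 CPM (32 counts), and Cd28 at 181 CPM (120 to 261, 28 counts) and 166 CPM (98.4 to 262, 18 counts). Expressed against CD8 T-like cells, Cd28 was at 88.2% and 75.7%, Icos at 19.9% and 21.6%, and 5 T cell markers (Cd3e, Cd3d, Cd3g, Trac and Trbc2) summed to 3.95% and 5.77%. Without the NK-like cells that had a UMI of 5 macrophage markers, 21 and 14 of the Cd28 counts remained. Ctla4 in NK-like cells was at 25.8 CPM on 4 counts and 129 CPM on 14 counts, and B-like cells (10 and 6 cells) had 4 and 3 Ctla4 counts.

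Between the libraries, Icos was higher in the one labelled Lmo7-/- in all 7 lymphocyte classes. The log2 ratio of the library labelled Lmo7-/- over the Lmo7+/+ library was 0.78 (0.60 to 0.97) in regulatory T-like cells, 0.67 (0.40 to 0.95) in cycling CD8 T-like cells and 0.49 (0.30 to 0.68) in CD8 T-like cells. It was 0.32 (-0.10 to 0.73) in memory-like T cells and 0.61 (-0.16 to 1.37) in NK-like cells. Ctla4 had a log2 ratio of 0.51 (0.21 to 0.81) in regulatory T-like cells, 0.56 (0.07 to 1.06) in cycling CD8 T-like cells, 0.44 (-0.04 to 0.94) in CD8 T-like cells and -0.66 (-1.87 to 0.47) in memory-like T cells. For Cd28 the ratio was 0.44 (-0.03 to 0.92) in regulatory T-like cells and 0.10 (-0.35 to 0.55) in CD8 T-like cells, and no named class had an interval above or below 0. The share of all genes with an interval above 0 was not computed, so these intervals do not set the receptors apart from other genes.

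No receptor with at least 20 counts reached 2-fold in a named lymphocyte class, although Icos in regulatory T-like cells had a log2 ratio of 1.07 with a stricter filter on cells. Ctla4 in NK-like cells, with 18 counts in all, lay at a log2 ratio of 2.32 (0.65 to 4.38). Among all genes with at least 20 counts, 6.93% passed 2-fold in regulatory T-like cells, 6.22% in CD8 T-like cells, 5.13% in cycling CD8 T-like cells, 7.05% in memory-like T cells and 8.15% in NK-like cells, and the median log2 ratio of all those genes lay between -0.06 and 0.00. A pair of small unnamed clusters did reach it. In a cluster of 69 cells led by Bdh2, Nrn1 and Xcl1, Cd28 was at 164 CPM (13 counts) and 381 CPM (34 counts), a log2 ratio of 1.21 (0.25 to 2.26), and Icos at 354 and 796 CPM, a log2 ratio of 1.17 (0.52 to 1.86), so that 2 of 3 receptors passed 2-fold where 7.33% of genes did. In the Il17a Tnfsf8 cluster of 75 cells Ctla4 was at 191 CPM (16 counts) and 427 CPM (43 counts), a log2 ratio of 1.16 (0.30 to 2.09), and 1 of 3 receptors passed where 9.61% of genes did.

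**Figure D2:**
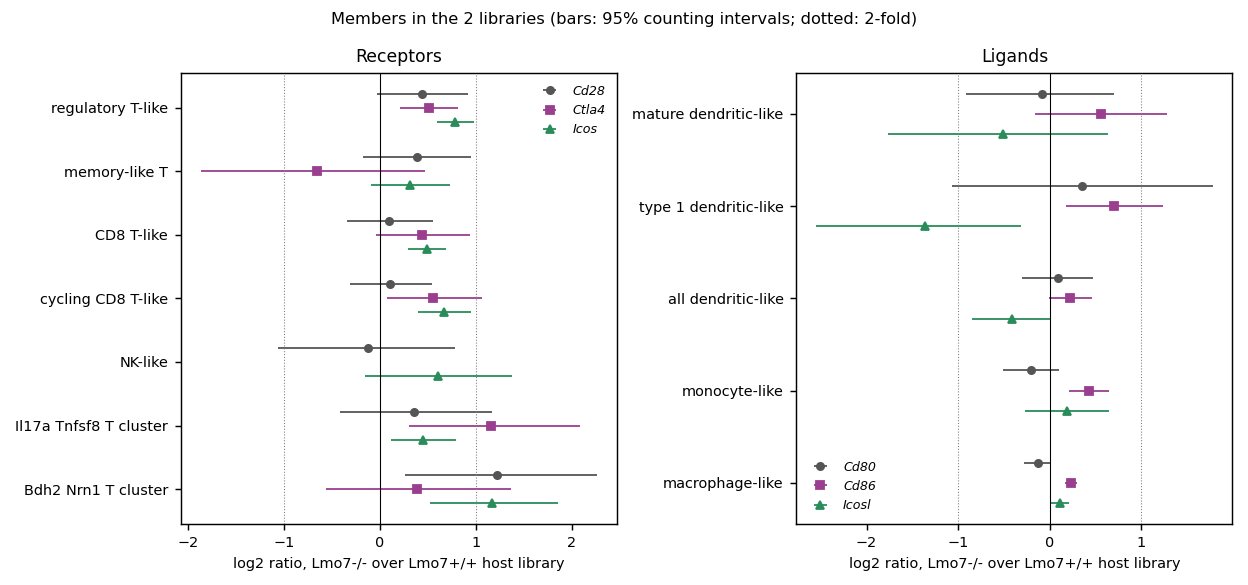
Log2 ratios of the library labelled Lmo7-/- over the Lmo7+/+ library (x axes) for the receptors in 7 lymphocyte classes and the ligands in 5 myeloid and dendritic classes (y axes), with points for genes of at least 20 counts, bars for 95% counting intervals and dotted lines at 2-fold. All 7 Icos points lie right of 0, and Icosl in type 1 dendritic-like cells lies at -1.36.

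Sorting the lymphocytes by their own UMIs in place of clusters gave the same order for Ctla4 and Icos. Cells with a Foxp3 UMI (57 and 63 cells) had Ctla4 at 740 and 1105 CPM and Icos at 1721 and 3285 CPM. Cells with a Cd8a or Cd8b1 UMI and neither Cd4 nor Foxp3 (311 and 485 cells) had Ctla4 at 137 and 184 CPM and Icos at 500.1 and 853 CPM. Cells with Cd4 alone (49 and 57 cells) lay between them for Ctla4, at 330 and 466 CPM, and had Icos at 1691 and 1883 CPM. Their Cd28 was at 381 and 346 CPM, against 320 and 454 CPM in the Foxp3 cells and 178 and 214 CPM in the Cd8 cells.

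Among ligands, Cd80 was highest in mature dendritic-like cells. These cells, with Fscn1 at 6145 CPM and Ccr7 at 3960 CPM, had Cd80 at 282 CPM (198 to 391, 36 counts in 35 cells) in the Lmo7+/+ library and 266 CPM (168 to 398, 23 counts in 27 cells) in the library labelled Lmo7-/-. Macrophage-like cells had 36.6 CPM (34.1 to 39.3) and 33.4 CPM (31.0 to 36.0), a 7.71-fold and 7.94-fold lower level. Type 1 dendritic-like cells, which present antigen to CD8 T cells and carried Xcr1 at 664 CPM, were at 35.7 and 45.7 CPM on 10 counts each, no higher than macrophage-like cells within their intervals. Monocyte-like cells had 110 CPM (96.6 to 125) and 96.0 CPM (81.0 to 113), 3.01-fold and 2.87-fold above macrophage-like cells. A Cd209a dendritic cluster (165 and 131 CPM) and a Cdh17 Galnt6 dendritic cluster (102 and 127 CPM), both unnamed, lay between mature and type 1 dendritic-like cells, and no neighbours in the order were apart. After thinning, 32.3% (16.7 to 51.4) and 36.0% (18.0 to 57.5) of mature dendritic-like cells had a Cd80 UMI, against 4.53% (3.86 to 5.28) of macrophage-like cells in the Lmo7+/+ library and 4.92% (4.26 to 5.65) in the other. Before thinning the shares were 51.4% and 48.1%, and 17.2% and 13.8%, at median depths of 3432 and 2543 UMIs in the mature cells. In tumor cell-like cells 0.0846% and 0.130% had one after thinning.

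Cd86 was more even across antigen-presenting cells. It stood at 274 CPM (191 to 382) and 404 CPM (281 to 562) in mature dendritic-like cells, 200 CPM (151 to 259) and 325 CPM (254 to 410) in type 1 dendritic-like cells, 163 CPM (146 to 181) and 220 CPM (197 to 244) in monocyte-like cells and 155 CPM (150.2 to 161) and 183 CPM (177 to 189) in macrophage-like cells. No neighbours in this order were apart before plasmacytoid dendritic-like cells, which had 1 count and 0 counts. In mature dendritic-like cells of the Lmo7+/+ library, 23 of 35 Cd86 counts remained without the 2 cells that had a UMI of a T cell marker. In the library labelled Lmo7-/- 34 of 35 remained without 1 such cell. Over the alternatives the log2 ratio to macrophage-like cells went as low as 0.35 and 0.90. With all cells kept, mature dendritic-like cells exceeded macrophage-like cells 1.77-fold and 2.21-fold, far less than for Cd80. Accordingly the Cd86 counts per Cd80 count were 0.972 (0.593 to 1.59) and 1.52 (0.874 to 2.70) in mature dendritic-like cells, 1.48 (1.25 to 1.75) and 2.29 (1.88 to 2.80) in monocyte-like cells, 4.25 (3.92 to 4.60) and 5.47 (5.04 to 5.93) in macrophage-like cells and 5.60 (2.83 to 12.3) and 7.10 (3.64 to 15.4) in type 1 dendritic-like cells. Monocyte-like and macrophage-like cells differed in this ratio beyond their intervals in both libraries, and both had a higher ratio in the library labelled Lmo7-/-.

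Icosl had yet another order. Mature dendritic-like cells had 165 CPM (102 to 252, 21 counts) and 115 CPM (55.4 to 212, 10 counts), and the Cd209a cluster 122 and 131 CPM. Macrophage-like cells had 77.7 CPM (74.0 to 81.6) and 83.8 CPM (79.9 to 87.8), above monocyte-like cells at 43.3 CPM (34.8 to 53.1) and 49.3 CPM (38.8 to 61.8), the reverse of their order for Cd80. Monocyte-like cells were at 0.557 and 0.589 times the macrophage level, with log2 ratios of -0.85 (-1.17 to -0.54) and -0.76 (-1.12 to -0.43). In tumor cell-like cells Icosl was the ligand with the most counts, 131 and 140, or 4.97 CPM (4.16 to 5.90) and 9.06 CPM (7.62 to 10.7), while Cd86 had 36 and 17 counts and Cd80 9 and 7. The tumor level was 15.6-fold and 9.24-fold below that of macrophage-like cells, and it differed between the libraries by a log2 ratio of 0.87 (0.51 to 1.22).

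**Figure D3:**
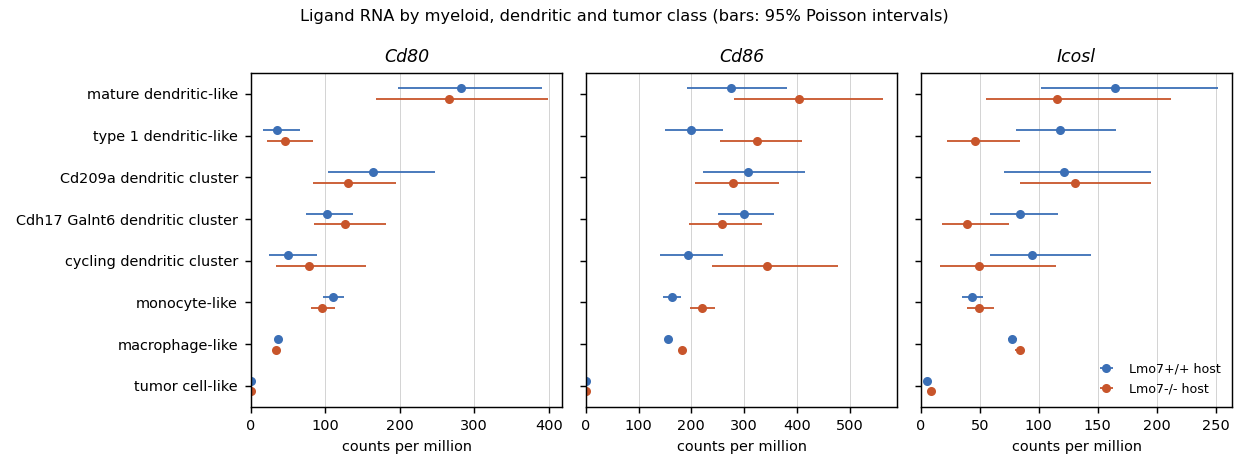
Levels of Cd80, Cd86 and Icosl in CPM (x axes, each from 0) in 8 myeloid, dendritic and tumor classes (y axis), with blue points for the Lmo7+/+ library, orange points for the library labelled Lmo7-/-, and bars for 95% Poisson intervals. Cd80 peaks in mature dendritic-like cells (282 and 266 CPM), Cd86 is spread over all antigen-presenting classes, and Icosl in macrophage-like cells (77.7 and 83.8 CPM) lies above monocyte-like cells.

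Cd86 was higher in the library labelled Lmo7-/- in 4 named classes. Its log2 ratio was 0.23 (0.17 to 0.30) in macrophage-like cells, 0.43 (0.21 to 0.65) in monocyte-like cells and 0.70 (0.18 to 1.23) in type 1 dendritic-like cells. In mature dendritic-like cells it was 0.56 (-0.16 to 1.28), an interval that covered 0. Other dendritic clusters differed in direction, at -0.22 (-0.69 to 0.24) in the Cdh17 Galnt6 cluster, -0.15 (-0.76 to 0.47) in the Cd209a cluster and 0.83 (0.14 to 1.51) in a cycling cluster. Over all dendritic-like cells Cd86 was at 0.23 (-0.01 to 0.46). Cd80 did not follow it, with log2 ratios of -0.13 (-0.28 to 0.02) in macrophage-like cells and -0.20 (-0.51 to 0.10) in monocyte-like cells. Icosl was at a log2 ratio of 0.11 (0.01 to 0.21) in macrophage-like cells and 0.19 (-0.27 to 0.65) in monocyte-like cells. The median log2 ratio of all genes tested was -0.09 in macrophage-like cells and -0.06 in monocyte-like cells.

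In type 1 dendritic-like cells Icosl lay the other way. These cells had 33 counts in 53 cells of the Lmo7+/+ library, or 118 CPM (81.1 to 165), and 10 counts in 42 cells of the library labelled Lmo7-/-, or 45.7 CPM (21.9 to 84.1). The log2 ratio was -1.36 (-2.55 to -0.31). Icosl was the only ligand past 2-fold in a named myeloid or dendritic class, where 7.56% of genes passed in type 1 dendritic-like cells, 11.7% in mature dendritic-like cells, 3.58% in monocyte-like cells and 2.77% in macrophage-like cells. In the Cdh17 Galnt6 cluster Icosl had 36 and 9 counts (83.7 and 39.4 CPM, log2 ratio -1.09, -2.33 to -0.01), and in the Cd209a cluster the log2 ratio was 0.10 (-0.85 to 1.09). Over all 531 dendritic-like cells Icosl was at 103 CPM (142 counts) and 77.0 CPM (71 counts), a log2 ratio of -0.42 (-0.85 to 0.00). None of the 3 ligands passed 2-fold there, where 4.67% of genes did. These cells include the Cd209a cluster of 81 cells and a cluster of 51 cells led by Mmp13 and Apoe. Both were left unnamed for markers of another lineage. The share of type 1 dendritic-like cells with an Icosl UMI was 37.7% and 21.4% before thinning, and after it a UMI was left in 4 of 50 cells (2.22% to 19.2%) and 2 of 41 cells (0.596% to 16.5%), with overlapping intervals. Granzyme genes were among the leading genes of this class, and its summed T cell markers were at 6.60% and 2.66% of the level in CD8 T-like cells, all 5 of them detected in both libraries, and their part in the result was not tested. Without the cells that had a UMI of a T cell marker 32 and 8 Icosl counts remained, a log2 ratio of -1.80. With a finer division of the dendritic-like cells, chosen after seeing the data, the class kept 14 and 11 cells and no ligand passed 2-fold.

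Macrophage-like cells were not uniform. Of their 8 clusters, the one with type I interferon genes had the most Icosl, 98.4 CPM (80.2 to 119) and 151 CPM (123 to 184). Its Cd80 was low, at 15.4 CPM (16 counts) and 20.3 CPM (13 counts), with only the Cd300e Xcr1 cluster lower in the library labelled Lmo7-/-, at 18.5 CPM. The Ifitm1 Ly6c2 cluster, which carried monocyte genes, showed the reverse with Cd80 at 47.4 and 44.6 CPM and Icosl at 64.3 and 46.0 CPM. Its Cd80 was 3.07-fold and 2.20-fold that of the interferon cluster, whose Icosl was in turn 1.53-fold and 3.29-fold higher. Cd86 peaked in the H2-M2 Igf1 cluster, at 198 CPM (185 to 211) and 222 CPM (209 to 236), and the clusters ranged down to 126 CPM in the Lmo7+/+ library and 128 CPM in the library labelled Lmo7-/-.

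The Cd300e Xcr1 macrophage cluster, with 345 cells in the Lmo7+/+ library and 1172 in the library labelled Lmo7-/-, differed most in Cd86 between the libraries. Cd86 stood there at 126 CPM (109 to 145) in the Lmo7+/+ library, against 187 CPM (175 to 200), and its log2 ratio was 0.57 (0.34 to 0.80). For Icosl the levels were 79.7 and 111 CPM and the log2 ratio 0.48 (0.19 to 0.77). Cd80 was at 24.4 CPM (38 counts) and 18.5 CPM (88 counts), and there were 5.16 (3.63 to 7.51) and 10.1 (8.11 to 12.7) Cd86 counts per Cd80 count. No ligand passed 2-fold in this cluster, where 4.63% of genes did. Icosl was lower in the library labelled Lmo7-/- in the Ifitm1 Ly6c2 cluster, with a log2 ratio of -0.48 (-0.79 to -0.19), and higher in the Arg1 Mmp12 cluster at 0.69 (0.12 to 1.27) and the type I interferon cluster at 0.62 (0.20 to 1.04). Cd80 in the Arg1 Mmp12 cluster had 48 and 36 counts, a log2 ratio of -0.82 (-1.48 to -0.16). With all 8 clusters given equal weight, an alternative chosen after seeing the data, the log2 ratio over macrophage-like cells was 0.17 for Cd86, 0.19 for Icosl and -0.02 for Cd80.

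**Figure D4:**
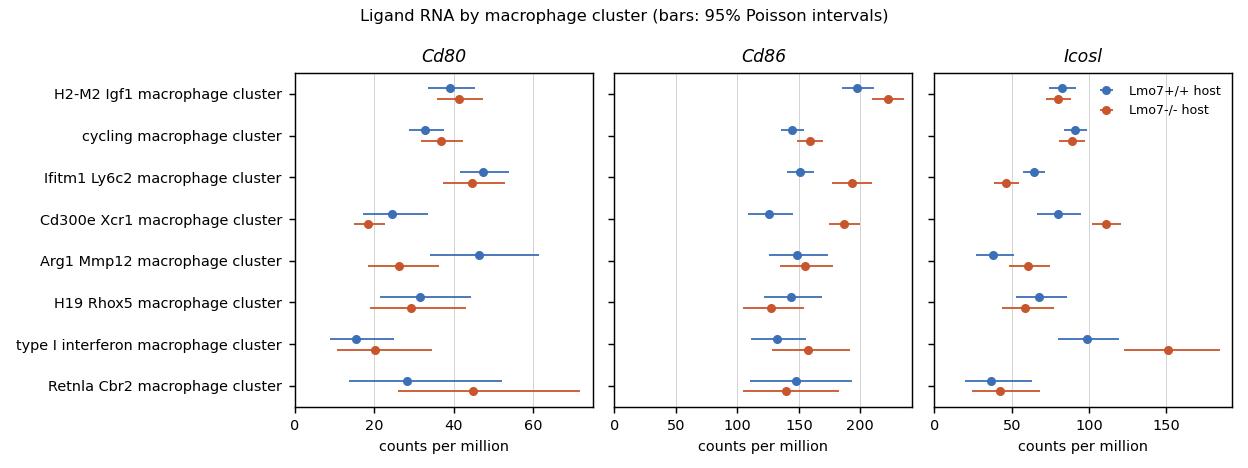
Levels of Cd80, Cd86 and Icosl in CPM (x axes, each from 0) in 8 clusters of macrophage-like cells (y axis), with blue points for the Lmo7+/+ library, orange points for the library labelled Lmo7-/-, and bars for 95% Poisson intervals. The type I interferon cluster is highest for Icosl (98.4 and 151 CPM) and low for Cd80 (15.4 and 20.3 CPM).

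Lymphocyte classes held few ligand counts, 1.75% and 2.67% of those of Cd80, but not every level was far below that of macrophage-like cells. CD8 T-like cells had Cd80 at 21.7 CPM (8.74 to 44.8, 7 counts) and 19.5 CPM (9.71 to 34.8, 11 counts), 59.4% and 58.2% of the macrophage level, while Cd86 was at 12.0% and 8.71% of that level and 5 macrophage markers (C1qa, C1qb, C1qc, Csf1r and Adgre1) at 1.29% and 0.985%. The Cd80 log2 ratio over macrophage-like cells was -0.75 (-2.07 to 0.30) and -0.78 (-1.79 to 0.07), with intervals that covered no difference. Icosl in memory-like T cells was at 46.0% and 39.3% of the macrophage level, on 5 and 4 counts. NK-like and memory-like T cells had no Cd80 count, which in NK-like cells allows up to 19.4 and 27.7 CPM at 3 counts. Receptor RNA in macrophage-like cells stayed under 1 CPM, with 9 and 14 counts of Cd28, 5 and 11 of Ctla4 and 7 and 15 of Icos. Icos there had a log2 ratio of 1.09 (-0.29 to 2.62), past 2-fold at this low level, where 2.77% of all genes passed. In tumor cell-like cells Icos had 6 and 20 counts, 0.228 and 1.29 CPM, a log2 ratio of 2.51 (1.14 to 4.11). The share of all genes past 2-fold was not computed for tumor cell-like cells. The 5 T cell markers named above summed to 3.11 and 7.18 CPM in them, and their part in the Icos difference was not tested. Mature dendritic-like cells had no Cd28 or Ctla4 count, which allows up to 23.5 and 34.6 CPM at 3 counts.

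The remaining CD28 and B7 relatives were measured in the same classes. Of 8 listed genes, 5 had at least 20 counts in macrophage-like cells, with a median log2 ratio of 0.44 against -0.09 for all genes, and 2 were higher by 2-fold or more, against 1.25% of all genes. Cd274, which encodes PD-L1, was at 138 CPM (2891 counts) in the Lmo7+/+ library and 284 CPM (5981 counts) in the library labelled Lmo7-/-, a log2 ratio of 1.04 (0.97 to 1.10), and Pdcd1lg2, which encodes PD-L2, at 7.35 and 42.3 CPM, a log2 ratio of 2.52 (2.28 to 2.78). Both were higher in each of the 8 macrophage clusters, Cd274 by log2 ratios from 0.38 to 1.21 and Pdcd1lg2, on fewer than 20 counts in 2 of them, from 1.53 to 2.80. Cd276, which encodes the relative B7-H3, lay the other way in macrophage-like cells, with 697 and 434 counts (33.3 and 20.6 CPM) and a log2 ratio of -0.69 (-0.87 to -0.52). It was lower in the library labelled Lmo7-/- in each of the 8 clusters, by 2-fold or more at -1.18 in the cycling cluster and -1.19 in the Arg1 Mmp12 cluster and on only 12 counts and 1 count in the Retnla Cbr2 cluster, while in the type I interferon cluster it was at -0.03 (-0.99 to 0.89). CD80 binds PD-L1 on the same cell, and in the Cd300e Xcr1 cluster Cd274 was at 133 and 308 CPM beside the Cd80 values above. In mature dendritic-like cells Cd274 was at 596 and 519 CPM, and none of 3 genes passed 2-fold, where 11.7% of all genes did. In CD8 T-like cells none of 4 passed, where 6.22% of all genes did. Pdcd1, the receptor PD-1, had a log2 ratio of 0.22 (-0.01 to 0.46) there. In regulatory T-like cells 1 of 4 passed, where 6.93% of all genes did. It was Cd274 with 8 and 34 counts (log2 ratio 1.90, 0.76 to 3.23), while Pdcd1 had a log2 ratio of -0.71 (-1.41 to -0.03). With 3 or 4 genes, these counts do not set the classes apart from macrophage-like cells.

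Signalling genes downstream of the receptors were counted in the same way in the T cell classes. None of 26 genes with enough counts passed 2-fold in CD8 T-like cells, where 6.22% of all genes did. None of 28 passed in cycling CD8 T-like cells, where 5.13% did. The median log2 ratios were -0.04 and -0.03, against -0.02 and -0.06 for all genes. Lists this short do not set these genes apart from all genes. In regulatory T-like cells 2 of 23 were higher and 2 lower by 2-fold or more, against 3.62% and 3.31% of all genes. Lat, an adaptor of the antigen receptor, had a log2 ratio of 1.02 (0.41 to 1.65), and Lrba, which keeps CTLA-4 from being degraded, one of 1.69 (0.60 to 2.94) on 9 and 33 counts. Pik3cd, a PI3-kinase subunit, had -2.13 (-3.58 to -0.90) on 27 and 7 counts, and the NF-kappaB subunit Rel -1.24 (-2.01 to -0.51). In memory-like T cells 1 of 20 was higher, Bcl10 at 1.11 (-0.22 to 2.55), and 2 were lower, Lcp2 at -2.06 (-3.81 to -0.64) and Cblb, a ubiquitin ligase, at -1.19 (-2.57 to 0.04), where 3.48% of all genes were higher and 3.57% lower.

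TNF family costimulation genes and genes of antigen-presenting cell maturation completed the pathway. Of the TNF family list, 1 of 7 genes was higher by 2-fold or more in macrophage-like cells (Tnfsf15, 3.63 and 10.9 CPM, log2 ratio 1.58), where 1.25% of all genes were. In mature dendritic-like cells 1 of 5 was higher (Tnfrsf18, 9 and 13 counts, 1.09, -0.25 to 2.49), against 3.93% of all genes, and in regulatory T-like cells 1 of 5 (Tnfsf9, 3 and 17 counts, 2.32, 0.53 to 4.73), against 3.62%. None of these lists had a gene lower by 2-fold, and in CD8 T-like cells none of 4 genes passed, where 6.22% of all genes did. Of the maturation list none of 10 passed in macrophage-like cells, where 2.77% of all genes did, with a median log2 ratio of 0.20, and none of 8 in mature dendritic-like cells, where 11.7% did. In type 1 dendritic-like cells 1 of 9 was higher and 2 were lower, against 2.57% and 5.00% of all genes. Il12b, a subunit of interleukin 12, had 39.3 and 178 CPM (11 and 39 counts, log2 ratio 2.18, 1.19 to 3.30), Cd40, which receives help from T cells, 96.3 and 27.4 CPM (27 and 6 counts, -1.81, -3.38 to -0.51), and Relb 64.2 and 32.0 CPM (-1.004, -2.51 to 0.32). In monocyte-like cells 1 of 10 was lower, Il12b on 16 and 4 counts (-1.53, -3.57 to 0.10), where 2.61% of all genes were.

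Patterns across classes were compared over 15 classes in both libraries, 30 points in all that share the 2 libraries, and 11667 genes. The genes most like Cd28 in log2(CPM + 1) were the T cell adhesion molecule Cd2 (r = 0.98), Ikzf3 (0.96) and Ctsw (0.95). Those most like Ctla4 were Aebp2 (0.93), Faah (0.93) and the kinase Zap70 (0.92), and those most like Icos were the receptor chain Cd247 (0.97), Lat (0.97) and Trbc2 (0.96). Ligands had looser likenesses, Gm2a (0.87), Havcr2 (0.87) and Il1r2 (0.86) for Cd80, Gm2a (0.89), Bcl2a1a (0.88) and Cfp (0.87) for Cd86, and Atp6ap2 (0.87), Zbtb18 (0.84) and Csf2rb (0.84) for Icosl. Among members the receptors followed each other (0.94 for Cd28 and Icos, 0.92 for Ctla4 and Icos, 0.89 for Cd28 and Ctla4), whereas Cd80 and Cd86 stood at 0.76, Cd86 and Icosl at 0.68 and Cd80 and Icosl at 0.35 (0.57 by Spearman correlation). These are descriptions without a test.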

How the data were processed

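The authors deposited raw UMI counts per gene and droplet called as a cell, without normalization. The submitters' processing notes name Cell Ranger 2.1.1 and the build mm10, the matrix headers carry software version 3.0.0, and the study used Seurat without giving thresholds. Droplets numbered 16208 (98582479 UMIs) in the Lmo7+/+ library and 15163 (80648345 UMIs) in the library labelled Lmo7-/-. Droplets under 500 genes or 1000 UMIs, or over 15% in mitochondrial UMIs, were removed, and the rest log-normalized to 10000 counts, reduced to 2000 variable genes without the members and 30 principal components (20 for T-like or dendritic-like cells alone), and clustered (Louvain, 20 neighbours, resolution 0.5). T-like, dendritic-like and macrophage-like cells were clustered again (resolution 0.8, 0.8 and 0.5) and named from markers. The limits for naming were set with the data in view. Doublets were kept, since the study names no step that removes them. Scrublet marked 3.01% and 2.86% of the cells, and at most 14 in any class and library used here.

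Counts were summed per class and library. Levels carry exact Poisson intervals, shares exact binomial (Clopper-Pearson) intervals, and log2 ratios the exact binomial interval of the split of counts. A gene needed 20 counts in the libraries together to enter a comparison between them. There were no replicates, so no test was run. The steps were tested on simulated data. The members, gene lists, markers and alternatives were chosen with earlier results of these data known. Genes named were the members, the 3 genes most like each, genes of the pathway lists past 2-fold (at most 4 in each direction), and genes that lead or mark a class. Cd274, Pdcd1 and Lmo7 values beyond that rule were chosen after they were seen or as checks. Sequences were read from the annotated transcripts and coordinates from the annotation of GRCm38. The alternatives were other filters, resolution, principal components, clustering genes, doublet removal, scaling, weighting, UMI gates, thinning and minimum counts. Tools were Python 3.11.15, numpy 2.4.6, scipy 1.17.1, pandas 2.3.3, scikit-learn 1.9.0, igraph 0.11.9, scanpy 1.11.5 and edgeR 4.0.16 (TMM scaling only).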

Additional observations from a re-analysis of the deposited data

Results flagged for a closer look

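Icosl lay in opposite directions between the libraries in macrophage-like and type 1 dendritic-like cells. The log2 ratio of the library labelled Lmo7-/- over the Lmo7+/+ library was 0.11 in macrophage-like cells (1628 and 1767 counts) and -1.36 in type 1 dendritic-like cells (33 and 10 counts). Macrophage-like cells had no shared direction, since Icosl was lower in the library labelled Lmo7-/- in 4 of their 8 clusters (-0.04 in the H2-M2 Igf1 and the cycling cluster, -0.48 in the Ifitm1 Ly6c2 cluster and -0.22 in the H19 Rhox5 cluster). The difference between these classes was not tested, since each genotype has 1 library.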

How the results depend on the processing

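Of 345 recomputed log2 ratios between the libraries 339 stayed within the counting interval and 6 moved, and of 284 ratios between classes 272 stayed and 12 moved. In direction 339 and 282 stayed. The others were Cd28 ratios that came to between -0.12 and 0.11 and Icosl in mature dendritic-like cells, and none was past 2-fold. Icos in CD8 T-like cells had a log2 ratio between the libraries of 0.72 with the lenient filter on cells (200 genes, 500 UMIs, 25% mitochondrial), 0.78 with the strict filter (1000 genes, 2000 UMIs, 10%) and 0.77 in cells sorted by UMIs, and in regulatory T-like cells 1.07 with the strict filter. Icosl in monocyte-like cells had 0.70 with the lenient filter, and Cd86 in macrophage-like cells 0.33 with TMM scaling. TMM scaling shifted all log2 ratios by 0.10 in macrophage-like cells and by 0.12 in cycling CD8 T-like cells. The number of receptors past 2-fold in named lymphocyte classes was 0, and 1 with the strict filter or a minimum of 10 counts. That of ligands in named myeloid and dendritic classes was 1, and 0 with finer clusters or a minimum of 50 counts and 2 without cells with markers of another lineage. Icosl in type 1 dendritic-like cells ranged from -1.84 to -0.81, and in mature dendritic-like cells from -0.63 to 0.12. Between classes, on the log2 scale, the lenient filter gave 2.19 for Ctla4 in regulatory over CD8 T-like cells in the library labelled Lmo7-/-, and in the Lmo7+/+ library 1.43 for the same ratio of Icos and -1.17 for Icos in cycling over CD8 T-like cells. Cells sorted by UMIs gave 1.78 and 1.94 for Icos in regulatory over CD8 T-like cells, and TMM scaling 1.16 in the library labelled Lmo7-/-. The Cd8 gate of that sorting, here and above, drew on all T-like clusters (311 and 485 cells). The CD8 T-like class held 135 and 236 cells, so the populations differ. The strict filter gave -0.88 and -1.03 for Icos in cycling over CD8 T-like cells, -1.43 for Icos in NK-like over CD8 T-like cells of the Lmo7+/+ library, and 1.04 for Cd80 and -1.18 for Icosl in monocyte-like over macrophage-like cells of the library labelled Lmo7-/-, where the lenient filter gave -0.26 for Icosl. The causes were not tested. Shares follow the depth of thinning by construction. At 1000 UMIs they were 12.6% and 20.8% for Ctla4 in CD8 T-like cells, 7.44% and 7.66% for Icosl and 3.36% and 3.16% for Cd80 in macrophage-like cells, and without thinning 28.9% and 27.6% for Icosl and 17.2% and 13.8% for Cd80 in macrophage-like cells and 51.4% for Cd80 in mature dendritic-like cells of the Lmo7+/+ library. With a minimum of 10 counts, 2 of 6 TNF family genes were higher by 2-fold or more in mature dendritic-like cells, where 7.04% of all genes were. By Spearman correlation the 3 genes most like a member shared 1 for Cd28, Ctla4 and Icosl, 2 for Icos and Cd80 and 0 for Cd86. No monocyte-like class formed at resolution 1.0 or with doublets removed, and no memory-like class with the strict filter, so no value was had there. No paired analysis was possible because each genotype has 1 library.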
